A study of Homo sapiens with 6 samples.

Results

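Antisense long noncoding RNAs are transcripts read from the strand opposite a protein-coding gene, and many are named after that sense gene with the ending -AS and a digit. The rows described here were chosen by that ending and by level: the mean value over the 6 libraries had to lie at least 1 above the lowest value of the deposited table, which corresponds to 27.6 normalised reads. The table held 827 rows with such a name among 31785, and 221 of the 827 met the level limit. The other 606 lay below it, and of these 2 exceeded the limit in every WT library and 1 in every knockdown library. Near the limit, the members NDUFV2-AS1, MYLK-AS1 and ADD3-AS1 averaged 28.0, 28.3 and 32.1 normalised reads, and the rows just outside it, PITPNA-AS1, NR2F2-AS1 and ALOX12-AS1, averaged 27.7, 28.7 and 27.4, the order being that of the mean on the log2 scale.

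The cells were D283 Med, an established line from a childhood medulloblastoma, a tumour of the cerebellum. RNA sequencing libraries came from cells with a knockdown of MSI1 (n = 3) and from WT cells (n = 3). MSI1 encodes Musashi-1, which binds RNA and is known from neural progenitors. The labels give neither the means of knockdown nor any control construct in WT cells, and do not say that the libraries came from separate cultures, so p-values measure the spread between these libraries, which may be technical. The WT libraries stand in the table under the heading VV, which the labels do not explain, and were assigned to WT because the other columns are headed KD.

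An antisense RNA can begin beside the promoter of its sense gene and run away from it, can overlap its first exons, or can lie across its end. Such RNAs are usually less abundant than messenger RNAs and often stay in the nucleus. Some are known to recruit chromatin regulators to the neighbouring gene, to pair with its transcript, or to share its promoter without any known action on it.

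Depth ranged between 18895997 and 24442276 reads in the knockdown libraries, against 17299671 to 38790342 reads in WT libraries. MSI1 had 1385, 1197 and 1281 normalised reads in knockdown libraries, against 1586, 1572 and 1378 in WT libraries. The highest knockdown library thus overlapped the lowest WT library. The knockdown mean was 85.2% of the WT mean, a difference of -0.21 on the stabilised log2 scale (SE 0.12, limma adjusted p = 0.304), so the labelled knockdown was not detectable as a change of the MSI1 transcript. Of the medulloblastoma genes checked, OTX2, MYC, NEUROD1, NRL and CRX were well above the limit and EOMES, LMX1A and BARHL1 below it. None of the 3 astrocyte markers and neither leukocyte marker reached the limit, whereas the fibroblast genes COL1A1 and COL1A2 did, with their list of 4 summing to 275 to 332 normalised reads in knockdown libraries and 302 to 337 in WT libraries. COL1A1 made up most of that sum and averaged 236 ± 26.0 in knockdown and 285 ± 8.47 in WT libraries; the scarce COL1A2, DCN and LUM had the higher mean in knockdown libraries, at 32.5, 26.5 and 4.62 against 23.8, 9.48 and 0.841 in WT libraries. The endothelial gene VWF also reached the limit, with 146 ± 35.2 normalised reads in knockdown and 140 ± 54.1 in WT libraries (SD, n = 3 each). The part of these marker genes in the results below was not tested.

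By position in GENCODE release 29 (GRCh38), 219 of the 221 members were placed, 203 by their own name and 16 through a RefSeq synonym; MAFG-AS1 and NOVA1-AS1 were not placed. GENCODE classed 148 as antisense, 32 as processed transcript, 32 as lincRNA, 2 as transcribed unitary and 2 as transcribed unprocessed pseudogene, and 1 each as protein coding, bidirectional promoter lncRNA and TEC (a class for unverified models). In the 217 pairs with a placed sense gene, the 5′ ends of both genes overlapped in 90, the 3′ ends in 46, and 43 pairs stood head to head without overlap. In 23 pairs the antisense gene lay inside the sense gene and in 15 the sense gene lay inside the antisense gene. The transcription starts were within 1000 bases of each other in 99 pairs. Exons of both strands overlapped in 144 pairs. Counting any gene of the opposite strand, 162 of the 219 placed members shared exonic bases. No source used here gives whether reads were counted by strand. Over such shared bases the reads of the antisense RNA and of the opposite gene therefore cannot be told apart.

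The start regions of 5 of the 6 members that later passed the test show the kinds of promoter involved. They are RefSeq windows on GRCh38.p14, each reaching over 300 bases around the annotated start, printed 5′ to 3′ on the strand of the antisense RNA. Capitals mark matches, on either strand, to the GC box (GGGCGG), the CAAT-type box written CCAAT, the core of the TATA box as TATAAA, the E-box element CACGTG or the homeobox letters TAATCC, and adjoining or overlapping matches form 1 capital run. The SOX21-AS1 window, chr13:94712466-94712765 on the plus strand, holds TATAAA beginning 30 bases before the start. The DNAJC3-AS1 window, chr13:95676876-95677175 on the minus strand, is a CpG-rich region of which 287 bases also lie in the window of DNAJC3. The SOX21-AS1 window shares 270 bases with that of SOX21.
SOX21-AS1: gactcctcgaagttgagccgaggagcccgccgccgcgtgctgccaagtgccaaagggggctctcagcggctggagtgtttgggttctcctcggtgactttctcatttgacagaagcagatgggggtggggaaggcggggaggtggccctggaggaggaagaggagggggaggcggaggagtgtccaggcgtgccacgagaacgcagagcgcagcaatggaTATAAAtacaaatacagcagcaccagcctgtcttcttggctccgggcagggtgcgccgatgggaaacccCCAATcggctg
DNAJC3-AS1: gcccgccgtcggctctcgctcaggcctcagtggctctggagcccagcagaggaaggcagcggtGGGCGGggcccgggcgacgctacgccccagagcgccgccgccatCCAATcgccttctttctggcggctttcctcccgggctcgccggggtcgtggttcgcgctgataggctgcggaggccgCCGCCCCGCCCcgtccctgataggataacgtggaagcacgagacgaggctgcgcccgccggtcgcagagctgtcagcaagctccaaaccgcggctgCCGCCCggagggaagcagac
The CTBP1-AS2 window, chr4:1249190-1249489 on the plus strand, holds 7 GC boxes and shares 191 bases with that of CTBP1. The BAIAP2-AS1 window, chr17:81034670-81034969 on the minus strand, holds 5 GC boxes and shares 69 bases with that of BAIAP2. The HDAC2-AS2 window, chr6:113969451-113969750 on the plus strand, shares none with that of HDAC2, has a GC content of 34.0% and a single CpG, and holds TATAAA beginning 88 bases before the start.
CTBP1-AS2: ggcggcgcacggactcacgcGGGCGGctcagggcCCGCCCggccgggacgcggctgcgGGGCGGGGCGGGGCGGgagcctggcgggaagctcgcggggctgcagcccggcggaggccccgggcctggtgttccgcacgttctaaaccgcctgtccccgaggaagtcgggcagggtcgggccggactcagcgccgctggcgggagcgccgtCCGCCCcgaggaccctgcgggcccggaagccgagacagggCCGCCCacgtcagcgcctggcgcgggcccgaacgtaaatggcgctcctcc
BAIAP2-AS1: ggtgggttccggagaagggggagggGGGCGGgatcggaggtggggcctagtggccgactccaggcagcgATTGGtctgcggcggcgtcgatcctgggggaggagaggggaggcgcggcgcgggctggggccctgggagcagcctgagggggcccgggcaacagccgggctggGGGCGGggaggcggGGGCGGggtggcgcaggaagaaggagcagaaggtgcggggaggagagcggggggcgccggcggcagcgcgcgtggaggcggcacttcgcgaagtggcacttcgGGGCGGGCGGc
HDAC2-AS2: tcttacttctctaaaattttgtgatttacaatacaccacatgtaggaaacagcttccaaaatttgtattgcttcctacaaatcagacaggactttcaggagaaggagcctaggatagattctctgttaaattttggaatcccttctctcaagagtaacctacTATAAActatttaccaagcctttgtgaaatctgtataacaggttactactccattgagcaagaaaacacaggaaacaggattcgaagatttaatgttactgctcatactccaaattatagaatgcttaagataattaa
Among the 169 members with a RefSeq window, median GC content was 67.0% with 27 CpG. Over all 27305 windows, 1 a gene, it was 58.3% with 14 CpG, and over the 9703 rows that met the level limit 65.7% with 27 CpG. The GC box stood in 70.4% of member windows, against 44.6% of all windows and 71.2% of those of rows that met the limit. TATAAA stood in 5.33% of member windows, against 11.95% of all windows and 5.15% of those of rows that met the limit. CCAAT stood in 32.5%, against 35.7% and 37.2%. CACGTG stood in 11.2%, against 7.43% and 10.3%. TAATCC, a letter pattern bound by OTX and CRX factors, stood in 5.33%, against 6.39% of all windows and 4.26% of those of rows that met the limit. A match describes letters in the window and not a site in use. Musashi-1 binds RNA at UAG, and the longest transcripts of 219 members held a median of 9.54 UAG per kilobase, against 8.70 for all 13442 placed rows above the limit. The longer motif GUAG stood at a median of 2.25 per kilobase in members, against 1.96 in those rows. Neither comparison was adjusted for the coding sequence in the rows above the limit. Across these members motif density and the difference between knockdown and WT had a Spearman rho of 0.11 for UAG and 0.04 for GUAG (n = 219, a description over genes that share 6 libraries).

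The members were scarce. Their median level was 103 normalised reads, against 667 over all 13558 rows above the limit. The 10th and 90th percentiles were 34.9 and 425, 107 members were under 100 normalised reads and 5 were over 1000. Together they held 0.210, 0.235 and 0.221% of normalised reads in knockdown libraries, against 0.192, 0.209 and 0.229% in WT libraries, groups that overlap. Levels per kilobase of exon were compared in the 189 placed pairs whose sense gene also met the level limit. In most of these the sense gene exceeded the antisense RNA. The median ratio of sense to antisense was 4.69 (quartiles 1.45 and 10.5), and the antisense RNA was the higher in 35. Pairs with a sense gene under the limit, such as that of FGD5-AS1, were left out, which favours the sense gene in this count.

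The 10 members with most reads held 41.4% of all member reads. LRRC75A-AS1, which RefSeq names SNHG29 and which hosts small nucleolar RNAs, came first with 11462, 9492 and 11959 normalised reads in knockdown libraries, against 6221, 9057 and 5865 in WT libraries. All 3 knockdown libraries exceeded all 3 WT libraries, WT replicate 2 lying close to knockdown replicate 2. The difference was 0.65 (SE 0.17, limma adjusted p = 0.0667) and did not pass the threshold of 0.05. FGD5-AS1 averaged 3849 ± 187 in knockdown and 3694 ± 429 in WT libraries (limma adjusted p = 0.808). OIP5-AS1, the conserved RNA also called Cyrano, known for binding the microRNA miR-7, averaged 2170 ± 255 in knockdown and 1811 ± 362 in WT libraries (SD, n = 3 each; limma adjusted p = 0.364). GABPB1-AS1 spread more within groups than any other member: it had 728, 1539 and 1131 normalised reads in knockdown libraries and 1044, 842 and 1666 in WT libraries. SCAMP1-AS1, by contrast, averaged 746 ± 61.4 in knockdown and 742 ± 12.6 in WT libraries. EPB41L4A-AS1 averaged 991 ± 147 in knockdown against 771 ± 120 in WT, and OTUD6B-AS1 715 ± 90.3 in knockdown against 874 ± 90.2 in WT, with limma adjusted p of 0.228 and 0.275.

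**Figure D1:**
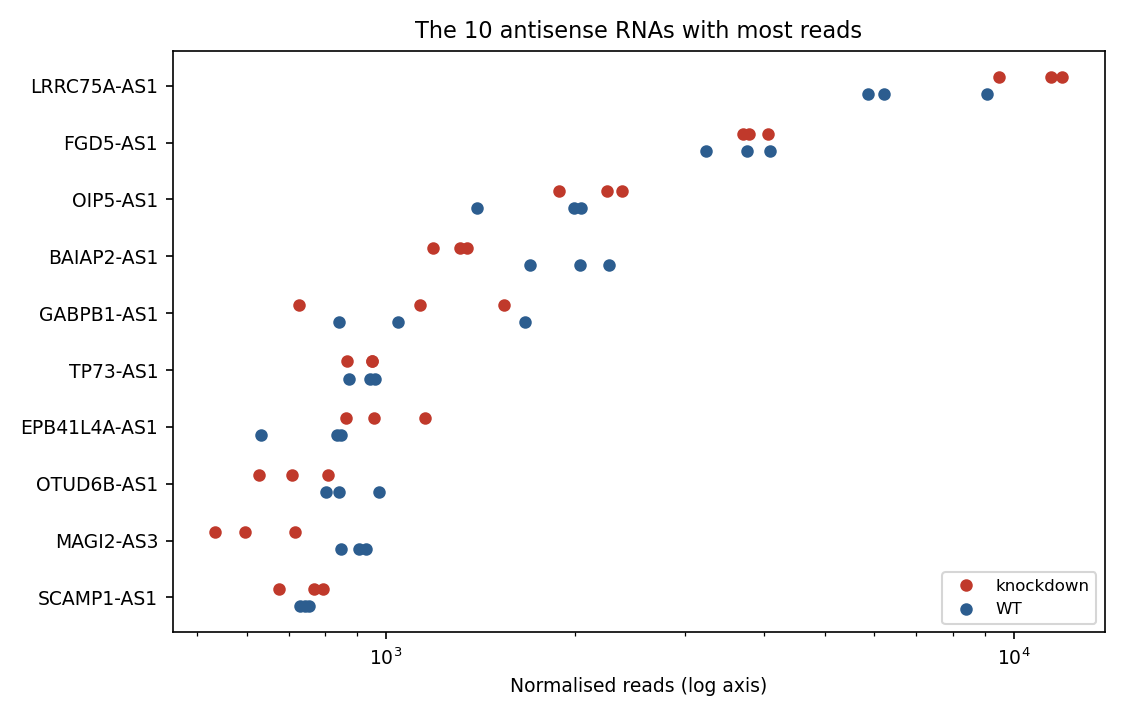
Normalised reads (log axis) of the 10 antisense RNAs with most reads, 1 point per library, knockdown above WT in each row. LRRC75A-AS1 lies apart from the rest at 5865 to 11959, BAIAP2-AS1 is lower in all 3 knockdown libraries, and TP73-AS1 and SCAMP1-AS1 have overlapping groups.

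The members shifted together between libraries of 1 group. Their median deviation from the row mean was -0.04, 0.06 and -0.01 in the knockdown libraries and -0.03, -0.06 and 0.06 in the WT libraries. Knockdown replicate 2 and WT replicate 3 were thus the high libraries. Of the 221 members, 114 had their highest knockdown value in replicate 2 and 109 their highest WT value in replicate 3, that is 51.6% and 49.3%, against 35.4% and 29.6% of all rows above the limit. The 116 rows named LINC, long intergenic noncoding RNAs that met the same limit, had median deviations of 0.05 in knockdown replicate 2 and 0.06 in WT replicate 3. All rows above the limit had -0.01 and -0.02 there. Both held for 61 members (27.6%), against 32.8% of the LINC-named rows and 12.9% of all rows above the limit. GABPB1-AS1, SSBP3-AS1 and SLC26A4-AS1, among the 4 members that varied most within groups, were of this kind. OTX2-AS1, described below, was highest in other libraries. The part of this library shift in the differences below was not tested beyond leaving out each library in turn.

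**Figure D2:**
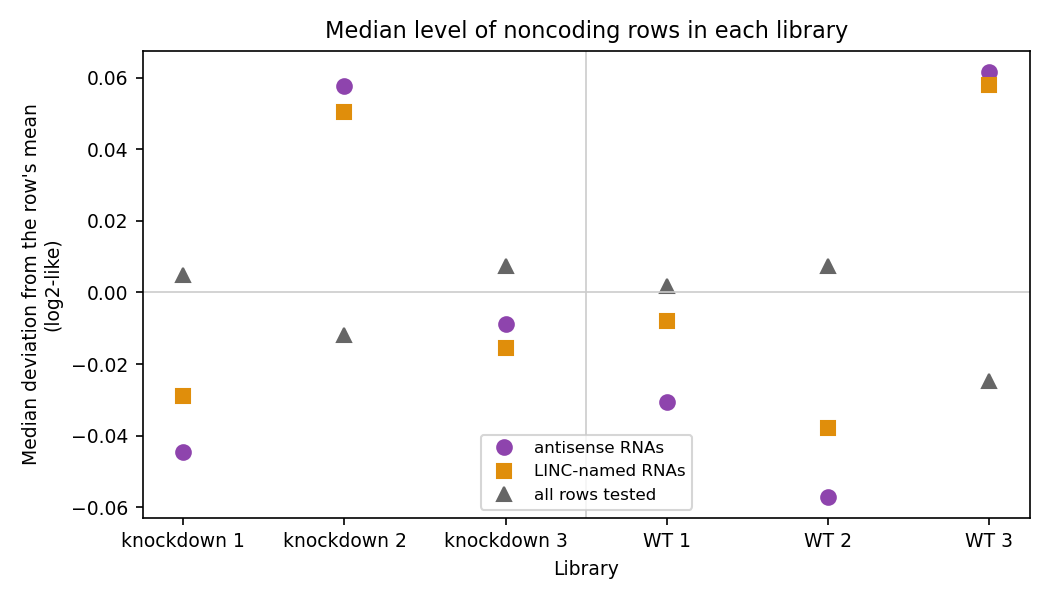
Median deviation from each row's mean (log2-like scale) in every library, for the 221 antisense RNAs, the 116 LINC-named RNAs and all 13558 rows above the limit. Knockdown replicate 2 and WT replicate 3 stand at 0.06 for the antisense RNAs, whereas all rows stand at -0.01 and -0.02.

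Between knockdown and WT libraries 6 of the 221 members passed the test (limma, Benjamini-Hochberg adjustment over all 13558 rows, threshold 0.05). SOX21-AS1 and HDAC2-AS2 were higher in knockdown libraries, and DNAJC3-AS1, RAMP2-AS1, CTBP1-AS2 and BAIAP2-AS1 were lower. These 6 are 2.71% of the members, where 4.1% of all rows tested passed; 1.78% of all rows were higher and 2.32% lower. The members' share therefore lay near the background. By sign 118 members were higher and 103 lower, with a median difference of 0.02, against 0.01 over all rows. At an unadjusted p under 0.05 there were 42 members (19.0%), against 22.0% of all rows. The median absolute difference was 0.14, against 0.17 over all rows and 0.22 for the LINC-named RNAs. The stabilised scale compresses scarce rows, and by voom on the recovered reads the order against all rows turned: the medians were 0.26 for the members, 0.22 over all rows and 0.41 for the LINC-named RNAs. Groups did not overlap for 55 members (24.9%; 34 higher and 21 lower), against 27.8% of all rows. Of the LINC-named RNAs 5 were called higher and 4 lower, and of 9 rows with the endings -DT, -IT or -OT, other names for RNAs placed by a neighbouring gene, 0 passed the limma test, 0 had an unadjusted p under 0.05, voom called 0, and 1 had groups apart. Differences between these classes of name were not tested. In 17 members the mean of 1 group lay under the level limit, so that they met it only through the other group; SOX21-AS1 is the called one among them, and ADD3-AS1, CERS3-AS1, SP2-AS1, PTOV1-AS1 and RARA-AS1 are the others described below.

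**Figure D3:**
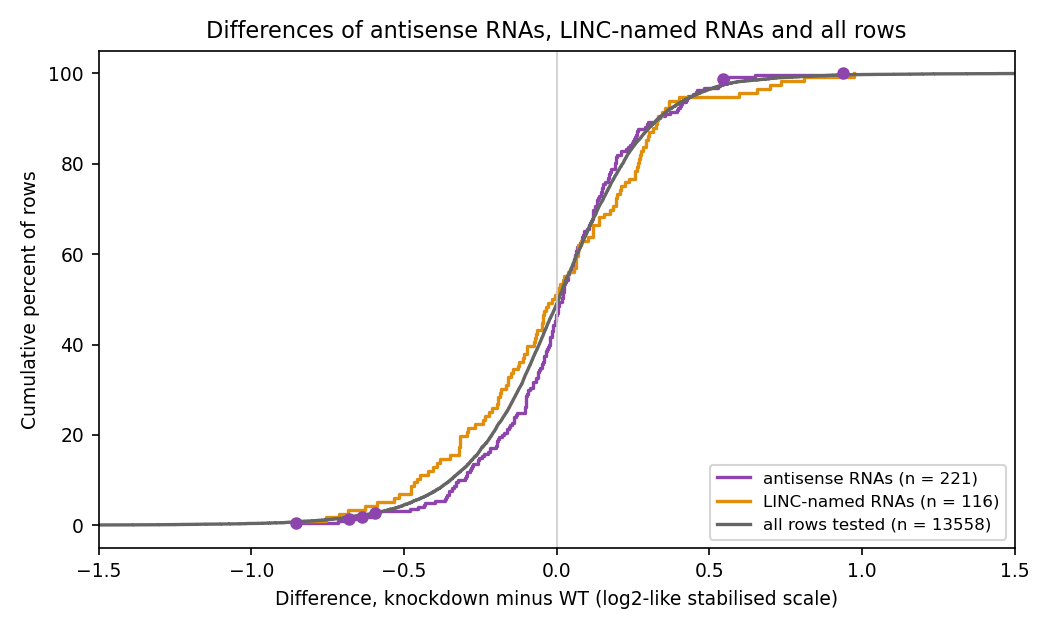
Cumulative percent of rows by difference, knockdown minus WT (log2-like scale), for antisense RNAs, LINC-named RNAs and all rows tested, with points for the 6 called antisense RNAs. The antisense curve is the steepest near 0, with a median absolute difference of 0.14 against 0.17 over all rows, on a scale that compresses scarce rows (0.26 against 0.22 by voom).

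SOX21-AS1 (chromosome 13, 94712716 to 94716246, plus strand) starts 317 bases from SOX21, a SOX-family transcription factor gene of neural progenitors, and runs away from it with no shared exon. It had 75.9, 79.2 and 63.3 normalised reads in knockdown libraries, against 13.2, 12.6 and 7.70 in WT libraries. All knockdown libraries exceeded all WT libraries. The counts behind these were 75, 63 and 59 reads in knockdown libraries and 9, 20 and 10 in WT libraries. The means of 72.8 ± 8.39 in knockdown and 11.2 ± 3.03 in WT libraries differed 6.53-fold, and the difference was 0.94 (SE 0.13, limma adjusted p = 0.00672). The stabilised scale understates the fold of rows as scarce as this. SOX21-AS1 passed under all 16 alternatives that could include it, with adjusted p of 0.00179 to 0.0476, but it met the level limit only through its knockdown libraries. SOX21 itself had a mean under the limit, with 42.5, 51.6 and 67.6 normalised reads in knockdown libraries, against 8.78, 15.1 and 1.54 in WT libraries. In the fit with no level limit SOX21 was higher in knockdown libraries (difference 0.85, limma adjusted p = 0.00744). Antisense minus sense on the stabilised scale moved by 0.09 (exact permutation test, two-sided p = 0.6; 0.1 is the smallest p that 3 against 3 libraries can give). That scale compresses the scarcer RNA of a pair more, so the log2 ratio of normalised reads (pseudocount 0.5) is given beside it: it moved by -0.32 (exact permutation p = 0.9), the other way.

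HDAC2-AS2 (chromosome 6, 113969701 to 114471705, plus strand) begins inside HDAC2, a histone deacetylase gene, 41607 bases from its start, and shares 69 exonic bases with it. It had 535, 597 and 575 normalised reads in knockdown libraries, against 425, 332 and 326 in WT libraries. The groups did not overlap, WT replicate 1 being the nearest. The difference of 0.54 (SE 0.13) was 1.58-fold between means, with a limma adjusted p of 0.0465. The call was lost in 10 of 17 alternatives, among them leaving out WT replicate 2 or 3 or any knockdown library, with adjusted p up to 0.168. HDAC2 averaged 8934 ± 75.8 in knockdown and 8308 ± 1700 in WT libraries (limma adjusted p = 0.679). Antisense minus sense was higher in every knockdown library, by 0.42 on the stabilised scale and 0.54 as a log2 ratio of reads (exact permutation p = 0.1 for each).

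DNAJC3-AS1 (chromosome 13, 95648733 to 95676925, minus strand; DNAJC3-DT in RefSeq) starts 214 bases from DNAJC3, which encodes a co-chaperone of the endoplasmic reticulum, and shares no exon with it. It had 69.8, 96.8 and 102 normalised reads in knockdown libraries, against 261, 218 and 210 in WT libraries. Every knockdown library lay below every WT library, by 2.56-fold between means of 89.5 ± 17.3 in knockdown and 230 ± 27.2 in WT libraries (SD, n = 3 each). The difference was -0.85 (SE 0.14, limma adjusted p = 0.012), and the call was lost only without knockdown replicate 1 (limma adjusted p = 0.0732). DNAJC3 had 914, 953 and 830 normalised reads in knockdown libraries, against 1716, 1779 and 2069 in WT libraries. DNAJC3 also fell, by 0.96 on the stabilised log2 scale (limma adjusted p = 0.00656). Antisense minus sense moved by 0.11 on the stabilised scale (exact permutation p = 0.6) and by -0.32 as a log2 ratio of reads (exact permutation p = 0.5), so its direction was not settled.

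RAMP2-AS1 (chromosome 17, 42753914 to 42761257, minus strand) overlaps the 5′ end of RAMP2, a receptor activity-modifying protein that partners the calcitonin-like receptor, over 412 exonic bases. It had 163, 176 and 170 normalised reads in knockdown libraries, against 356, 267 and 365 in WT libraries. The groups were apart, with a 1.94-fold lower mean in knockdown libraries (difference -0.68, SE 0.14, limma adjusted p = 0.0283). Leaving out any of the 3 knockdown libraries ended the call, with limma adjusted p of 0.0807 to 0.121. RAMP2 averaged 303 ± 22.6 in knockdown and 570 ± 90.2 in WT libraries (difference -0.73, limma adjusted p = 0.0214). Antisense minus sense moved by 0.05 on the stabilised scale (exact permutation p = 0.8) and by -0.04 as a log2 ratio of reads (exact permutation p = 0.9).

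CTBP1-AS2 (chromosome 4, 1249300 to 1288291, plus strand; CTBP1-DT in RefSeq) overlaps the 5′ end of CTBP1, a transcriptional corepressor gene, over 305 exonic bases. It had 146, 165 and 122 normalised reads in knockdown libraries, against 259, 275 and 285 in WT libraries. The groups were widely apart, 1.89-fold lower in knockdown libraries (difference -0.64, SE 0.13, limma adjusted p = 0.0288). Leaving out any knockdown library, or WT replicate 2, ended the call (limma adjusted p of 0.0587 to 0.131). CTBP1 averaged 1380 ± 94.2 in knockdown and 1727 ± 123 in WT libraries, a difference of -0.30 that did not pass (limma adjusted p = 0.157). The CTBP1 groups did not overlap. Antisense minus sense moved by -0.33 on the stabilised scale (exact permutation p = 0.2). As a log2 ratio of reads it was lower in every knockdown library, a change of -0.60 (exact permutation p = 0.1).

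BAIAP2-AS1 (chromosome 17, 81029130 to 81034881, minus strand; BAIAP2-DT in RefSeq) starts 241 bases from BAIAP2, which encodes an actin and membrane scaffold found at synapses, and shares no exon with it. It was the fourth most abundant member, with 1346, 1313 and 1188 normalised reads in knockdown libraries, against 2041, 2266 and 1694 in WT libraries. The groups did not overlap, and the mean was 1.56-fold lower in knockdown libraries (difference -0.59, SE 0.13, limma adjusted p = 0.0349). Leaving out any knockdown library, or WT replicate 2, ended the call (limma adjusted p of 0.0887 to 0.147). Per kilobase of exon the antisense RNA averaged 344 and BAIAP2 93.5 normalised reads over the 6 libraries. BAIAP2 averaged 846 ± 40.6 in knockdown and 1078 ± 104 in WT libraries, without overlap of the groups (difference -0.31, limma adjusted p = 0.158). Antisense minus sense was lower in every knockdown library. It changed by -0.28 on the stabilised scale and -0.29 as a log2 ratio of reads (exact permutation p = 0.1 for each).

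**Figure D4:**
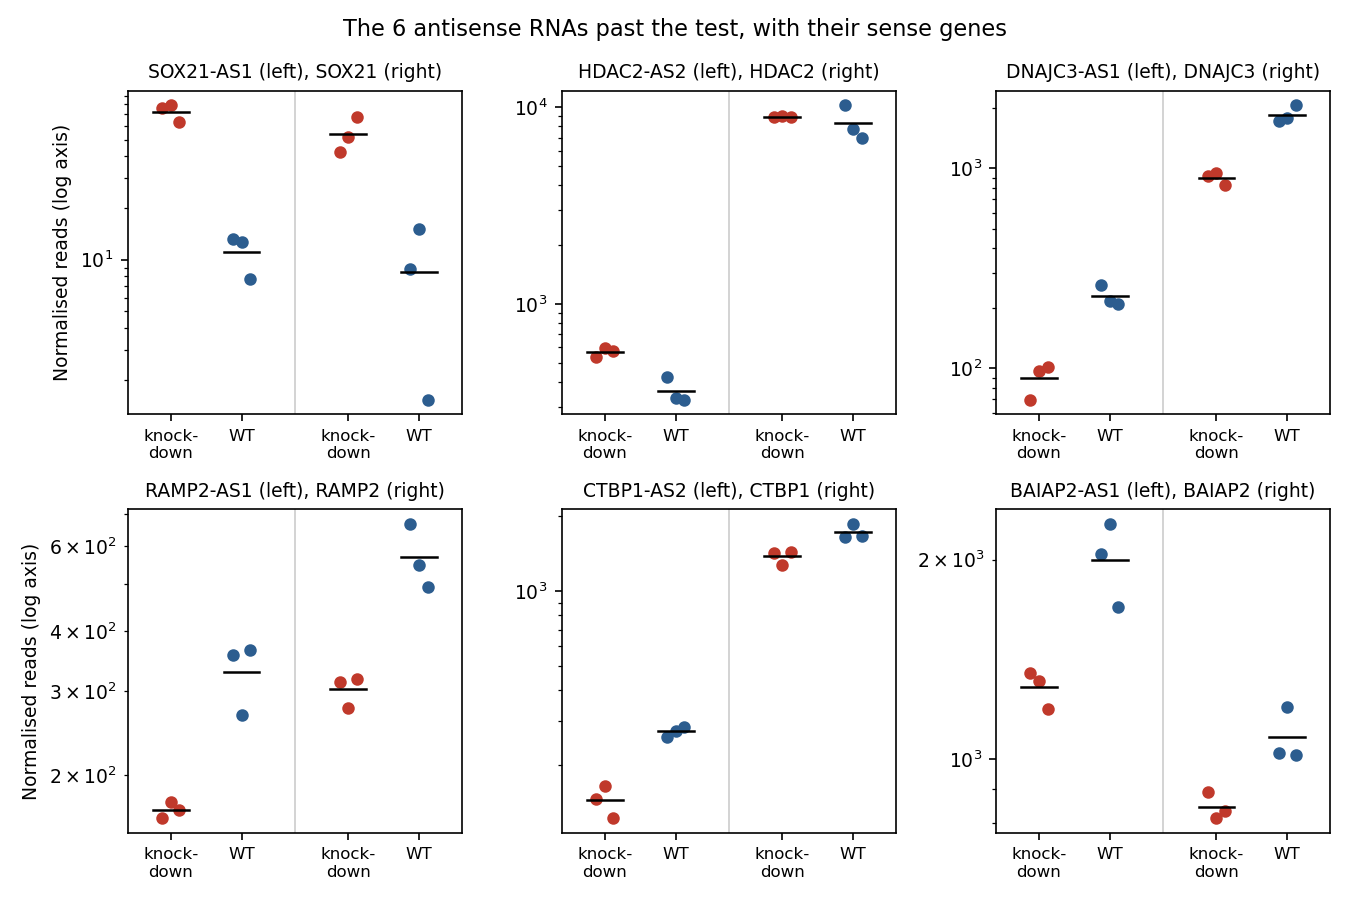
Normalised reads (log axis) of the 6 called antisense RNAs and their sense genes, 1 point per library with the mean as a bar, knockdown left of WT. SOX21, DNAJC3, RAMP2, CTBP1 and BAIAP2 lie on the same side of WT as their antisense RNA, whereas the HDAC2 groups overlap.

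RAMP2-AS1 and BAIAP2-AS1 both lie on the long arm of chromosome 17. Of the 8 members there 7 were lower in knockdown libraries, with a median difference of -0.27. All 580 rows above the limit on that arm had a median of -0.33, so the median of the members lay near that of the arm. The 7 members of chromosome 13, which holds SOX21-AS1 and DNAJC3-AS1, had a median of 0.13, against 0.02 for its 242 rows. The copy number of these regions in the libraries is not known from the files.

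Among members that did not pass the test but whose groups did not overlap, the 5 with the largest positive differences were LRRC75A-AS1, RASSF8-AS1, KCNK15-AS1, DICER1-AS1 and ADD3-AS1. RASSF8-AS1 had 211, 313 and 204 normalised reads in knockdown libraries, against 130, 136 and 135 in WT libraries (0.56, limma adjusted p = 0.0651). The WT libraries were nearly equal, and knockdown replicate 2 was the high one. DICER1-AS1, which starts 365 bases from DICER1, the gene of the microRNA-processing enzyme, had 131, 118 and 132 normalised reads in knockdown libraries, against 52.7, 85.1 and 56.0 in WT libraries (0.53, limma adjusted p = 0.057). DICER1 averaged 2524 ± 604 in knockdown and 2798 ± 254 in WT libraries, with overlapping groups. KCNK15-AS1, beside a potassium channel gene, averaged 99.8 ± 13.2 in knockdown and 47.2 ± 17.6 in WT libraries (0.54, limma adjusted p = 0.0718).

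The 5 largest negative differences of that kind belonged to CERS3-AS1, ZNF630-AS1, NOVA1-AS1, MAGI2-AS3 and SP2-AS1. CERS3-AS1 had 23.3, 8.80 and 6.44 normalised reads in knockdown libraries, against 39.5, 42.9 and 87.5 in WT libraries (-0.72, limma adjusted p = 0.0506), and it met the level limit only through WT. NOVA1-AS1, named for the neuronal splicing factor NOVA1, had 77.9, 116 and 75.1 normalised reads in knockdown libraries, against 196, 181 and 148 in WT libraries (-0.59, limma adjusted p = 0.0506). NOVA1 averaged 90.0 ± 7.07 in knockdown and 172 ± 63.1 in WT libraries, also without overlap (limma adjusted p = 0.132). MAGI2-AS3 had 534, 596 and 716 normalised reads in knockdown libraries, against 846, 904 and 930 in WT libraries (-0.48, limma adjusted p = 0.0665), while MAGI2, a synaptic scaffold gene, averaged 55.6 ± 10.6 in knockdown and 65.7 ± 16.7 in WT libraries. Per kilobase MAGI2-AS3 averaged 64.9 and MAGI2 1.92 normalised reads. ZNF630-AS1 averaged 87.1 ± 30.4 in knockdown and 175 ± 59.1 in WT libraries, and SP2-AS1, on the long arm of chromosome 17, 20.9 ± 10.1 in knockdown against 47.5 ± 8.20 in WT (limma adjusted p of 0.105 and 0.121).

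The sense genes of 191 members met the level limit, 188 different genes. Of these 7 passed the test (3.72%, against 4.1% of all rows). ADD3 and TP73 were the 2 higher in knockdown libraries, and 5 were lower, among them DNAJC3, RAMP2, RARA and SVIL. RAMP2 and RARA lie on the long arm of chromosome 17, where all rows had a median of -0.33. The limma fit without the rows of that arm called 2 sense genes higher and 2 lower. Without any 1 of the knockdown libraries 0 sense genes were called higher by limma and 1, DNAJC3, was called lower. Antisense and sense differences had the same sign in 113 pairs and opposite signs in 78. Across the pairs Pearson's r was 0.43 and Spearman's rho 0.35 (n = 191 pairs, described without a test since they share the 6 libraries). In the 61 pairs without shared exons r was 0.59 and rho 0.40, with 38 pairs of the same sign; in the 128 pairs with shared exons r was 0.33 and rho 0.30, with 73 of the same sign. For starts within 1000 bases of each other r was 0.38 and rho 0.27 (n = 94), and for starts farther apart 0.45 and 0.38 (n = 95). The sign was the same in 27 of 40 head-to-head pairs without overlap, 43 of 81 pairs with overlapping 5′ ends, 19 of 38 with overlapping 3′ ends, 16 of 20 with the antisense gene inside the sense gene and 6 of 10 with the sense gene inside. The median absolute change of antisense minus sense, on the stabilised scale, was 0.10, 0.24, 0.20, 0.16 and 0.22 in these 5 arrangements, and 0.18, 0.34, 0.24, 0.23 and 0.48 as a log2 ratio of reads.

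**Figure D5:**
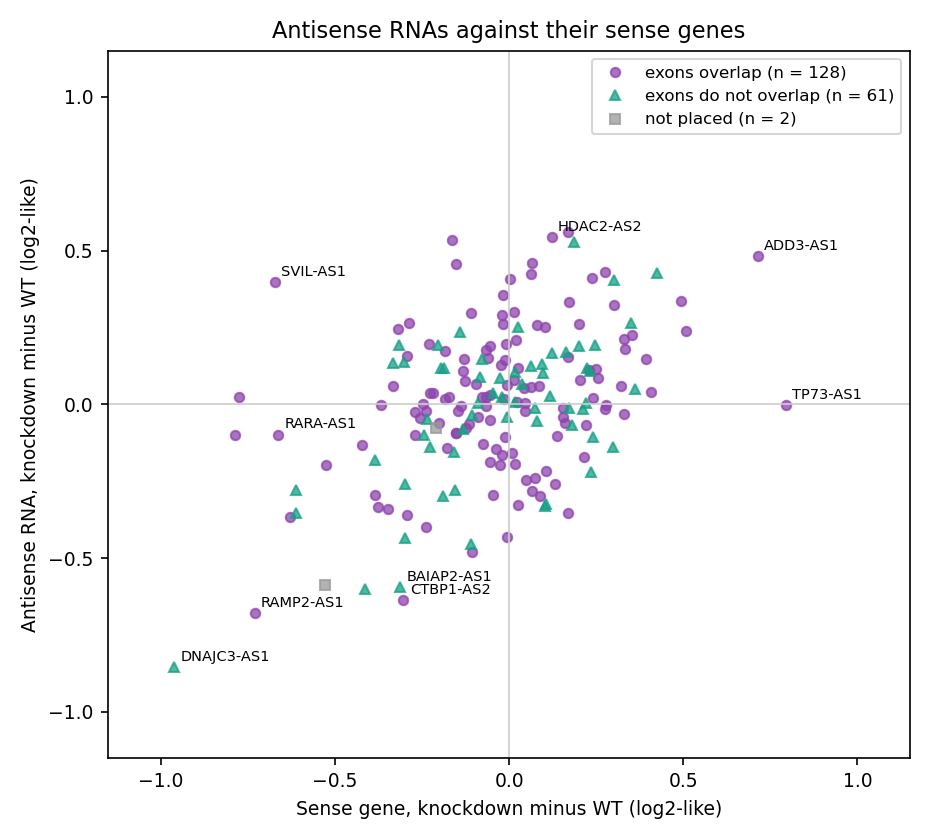
Difference of each antisense RNA (vertical) against that of its sense gene (horizontal), knockdown minus WT on the log2-like scale, for 191 pairs. DNAJC3-AS1 and RAMP2-AS1 lie at the lower left with their sense genes, and TP73-AS1 lies at 0 beside a sense gene that rose by 0.79.

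Both RNAs of a pair passed the test in 2 cases, those of DNAJC3 and RAMP2. Knockdown and WT libraries were apart for 55 of 221 members and 48 of 188 sense genes, against 27.8% of all rows. In 14 of 191 pairs they were apart for both RNAs, a count not tested against those shares. In 11 of these 14 both lay on the same side of WT. The other 3 lay on opposite sides and, like the members in the rest of this paragraph other than TP73-AS1 and ADD3-AS1, were picked after their values were seen. TTC28-AS1 averaged 417 ± 34.7 in knockdown and 330 ± 9.16 in WT libraries, and TTC28 1364 ± 45.1 in knockdown against 1699 ± 227 in WT. ZSCAN16-AS1 averaged 175 ± 25.5 in knockdown and 134 ± 9.47 in WT libraries, and ZSCAN16 72.4 ± 13.9 in knockdown against 109 ± 11.3 in WT. PTOV1-AS1 averaged 20.9 ± 4.85 in knockdown and 42.5 ± 8.60 in WT libraries, a member only through its WT level, and PTOV1 1667 ± 223 in knockdown against 1465 ± 47.7 in WT. None of these 6 RNAs passed the limma test, with adjusted p of 0.151 to 0.454. Where the sense gene passed, the antisense RNA often did not. TP73-AS1, which GENCODE classes as a transcribed unitary pseudogene and RefSeq names GFOD3P, lies across the 3′ end of TP73, a p53-family transcription factor gene. It had 951, 949 and 866 normalised reads in knockdown libraries, against 959, 944 and 872 in WT libraries. Those of TP73 were 869, 884 and 772 in knockdown libraries, against 482, 547 and 323 in WT libraries (0.79, limma adjusted p = 0.03), and antisense minus sense was lower in every knockdown library, a change of -0.80 on the stabilised scale and -0.94 as a log2 ratio of reads (exact permutation p = 0.1 for each). SVIL-AS1 averaged 529 ± 95.1 in knockdown and 378 ± 71.1 in WT libraries, whereas SVIL, an actin-binding protein gene, fell to 1781 ± 330 in knockdown, against 2897 ± 492 in WT libraries (limma adjusted p = 0.0446). RARA-AS1 differed by -0.10, beside RARA, a retinoic acid receptor gene, which fell by 0.66 (limma adjusted p = 0.0291). RARA lies on the long arm of chromosome 17, where all rows above the limit had a median of -0.33. ADD3-AS1 averaged 46.7 ± 24.9 in knockdown and 17.5 ± 10.8 in WT libraries, beside ADD3, a membrane skeleton gene, with 4320 ± 209 in knockdown and 2629 ± 545 in WT libraries (limma adjusted p = 0.0336).

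Of 32 antisense RNAs listed because they have been studied in cancer or neural cells, 27 were in the table and 14 were members. SOX21-AS1, a member only through its knockdown libraries, alone among these 14 passed the test, where 4.1% of all rows passed. So small a list cannot be set against that share. Groups were apart for 2 of the 14, against 27.8% of all rows, and the median difference of the 14 was 0.01. TMPO-AS1, which overlaps the 5′ end of the lamina gene TMPO, had 105, 127 and 104 normalised reads in knockdown libraries, against 71.7, 71.3 and 69.1 in WT libraries, apart but not past the threshold (0.35, limma adjusted p = 0.133). OTX2-AS1 had 397, 406 and 467 normalised reads in knockdown libraries and 293, 645 and 342 in WT libraries, a WT spread set by replicate 2. OTX2, the homeobox oncogene of these tumours, averaged 30373 ± 3590 in knockdown and 23664 ± 3341 in WT libraries (limma adjusted p = 0.229). THAP9-AS1, MAFG-AS1, ZNF213-AS1, MCM3AP-AS1, NNT-AS1, ZEB1-AS1, SLC25A25-AS1 and SBF2-AS1 had overlapping groups and differences between -0.24 and 0.04.

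Grouped by the role of the sense gene, in lists drawn up after the values were known, each class held between 0 and 2 called members, counts too small to set against the 4.1% of all rows called. Of 17 members beside developmental transcription factor genes, SOX21-AS1 was called. Of 12 beside chromatin and corepressor genes, HDAC2-AS2 and CTBP1-AS2 were called in opposite directions. None was called by limma among 16 beside zinc finger genes, 21 beside genes of RNA binding and translation, 19 beside genes of the cytoskeleton and small GTPases, or 14 beside genes of DNA repair and the cell cycle. At an unadjusted p under 0.05 these 4 classes held 4, 5, 4 and 3 members, where 22.0% of all rows had such a p, and voom on the recovered reads called 0 of them. Their median differences were 0.01, -0.0036, 0.08 and 0.12. BAIAP2-AS1 was the called member among 13 beside neuronal and synaptic genes. Knockdown and WT libraries were apart for 3 of 17 (developmental), 3 of 12 (chromatin), 5 of 16 (zinc finger), 5 of 21 (RNA binding), 6 of 19 (cytoskeleton), 3 of 14 (DNA repair) and 6 of 13 (neuronal) members, where 27.8% of all rows were apart. The 6 of the cytoskeleton class, the 3 of the developmental class and the 3 of the DNA repair class were all higher in knockdown libraries. Of the 6 of the neuronal class 4 were higher and 2 lower. In the zinc finger, chromatin and RNA binding classes 3 of 5, 1 of 3 and 2 of 5 were higher. Over all members 34 of the 55 apart were higher, and differences between classes were not tested.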

How the data were processed

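The deposited table holds log2 values after variance stabilisation, for which the submitters' processing notes name DESeq. The same notes name STAR, build GRCh38, Trim Galore, CASAVA 1.8.2 and quality reports; no source used here gives the counter, annotation or strand setting. The labels' protocols describe column-purified total RNA and standard Illumina libraries. Inverting the stabilisation gave whole reads for 100% of values (tolerance 0.01), from which normalised reads and depth were taken; intervals on them would cover counting error only.

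Rows with a mean at least 1 above the lowest value (13558) were tested with limma 3.58.1 (R 4.3.3, empirical Bayes with trend) on the deposited values, knockdown minus WT, with Benjamini-Hochberg adjustment over all rows. Antisense minus sense, on the deposited scale and as a log2 ratio of normalised reads (pseudocount 0.5), was compared by exact permutation of the 6 libraries. The calling steps were run on simulated reads, drawn for each row separately. These held no shift shared by a library or a chromosome arm, so the run cannot show how calls behave under such shifts. Replicates correlated at 0.988 to 0.994 (knockdown) and 0.978 to 0.985 (WT), and no libraries were duplicates within sampling noise.

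Members, gene lists and the rule for named genes were chosen with earlier results of these data known. The rule names all called members, the 5 largest uncalled rises and falls with groups apart, the 10 most abundant, those nearest the limit, studied RNAs, their sense genes and MSI1. Windows and names came from RefSeq (GRCh38.p14) and GENCODE 29, promoter counts from Python 3.11.15. Alternatives were other level limits, scalings, variance models, library weights, a replicate block, voom on the recovered reads, and leaving out each library. Values of some genes are not reported here.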

Additional observations from a re-analysis of the deposited data

How the results depend on the processing

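The median difference of the antisense RNAs stayed within -0.02 and 0.04 under every alternative run, which moved it by less than the 0.06 SD of the library medians within groups, and no named RNA or sense gene that was called changed direction. The number called was less stable than the main values of 2 higher and 4 lower. Higher calls numbered 1 with the level limit at 0.5, 1 with it at 2, 1 with median centring and 6 with library weights. The limit at 2 leaves SOX21-AS1 out of the fit, and HDAC2-AS2 stayed called there (limma adjusted p = 0.0444). With the replicate block, 1 RNA was called higher and 1 lower, and of the sense genes 1 higher and 2 lower; same-numbered libraries did not deviate together (correlations -0.0045, -0.25 and 0.0046), so the numbers were not taken as pairs. Leaving out 1 library in turn gave 1 to 2 antisense RNAs higher and 0 to 5 lower, and 0 to 2 sense genes higher and 1 to 6 lower; such fits have fewer libraries. Antisense RNAs called lower numbered 0 to 1 without a knockdown library and 2 without WT replicate 2. Without rows of the long arm of chromosome 17, an alternative chosen after seeing the data, 1 antisense RNA was called higher and 2 lower, with 2 sense genes lower; that fit leaves out RAMP2-AS1 and BAIAP2-AS1, and HDAC2-AS2 had a limma adjusted p of 0.0526. Voom on the recovered reads called 2 higher and 5 lower, and 514 of all rows against 556 by limma on the deposited values. As a log2 ratio of normalised reads, an alternative also chosen after seeing the data, antisense minus sense changed sign for 7 pairs, none with a p at the smallest value of 0.1 on either scale: -0.32 for SOX21-AS1, -0.32 for DNAJC3-AS1, -0.039 for RAMP2-AS1, -0.14 for LRRC75A-AS1, -0.059 for OIP5-AS1, -0.11 for EPB41L4A-AS1 and 0.76 for ADD3-AS1. Of the uncalled RNAs, CERS3-AS1 passed in 7 of 16 alternatives, NOVA1-AS1 in 6 of 17 and LRRC75A-AS1 in 4 of 17. The causes of these changes were not tested. Of the members 107 had under 100 normalised reads; the median SE on the tested scale was 0.14 for the members and for all rows.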
